A study of Mus musculus with 18 samples.

Results

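Oct4 (gene symbol Pou5f1), Sox2 and Klf4 are 3 of the 4 factors of the OSKM transgene, and their total transcript levels were followed through all 18 RNA-Seq libraries of the series. The genes were taken by symbol, 3 of 55471 genes listed, and all 3 passed the filter on low values in each comparison described. The ESCs carried the Tet-On-OSKM system and an Oct4-GFP reporter and came from (C57BL/6 x 129S4/SvJae)F1 mice crossed with (CBA/CaJ X C57BL/6J)F2 mice, and the study's methods describe 1 such line. OSKM-ESCs had been moved from 2iL to N2B27 with doxycycline (DOX) for 18, 25 or 38 days, and 2iL-ESCs had stayed in 2iL for the same days, with 2 libraries per day and medium. 2iL is N2B27 with the MEK inhibitor PD0325901, the GSK3 inhibitor CHIR99021 and LIF. OSKM-ESCs thus gained DOX and lost the inhibitors and LIF together, and these cannot be told apart. Below, 'with DOX' refers to the OSKM medium as a whole. The iPSCs and the MEF cells, mouse embryonic fibroblasts at passage 4, had the strain (C57BL/6 x 129S4/SvJae)F1, with 2 libraries in each group. OSKM-iPSCs (clones 1 and 3, passages 7 and 6) were reprogrammed and kept in N2B27 with DOX. 2iL-iPSCs (clones 3 and 6, passages 2 and 3) were reprogrammed in 2iL with DOX. The series design and the study's methods put the latter clones in 2iL without DOX after picking, whereas their own sample labels state a daily culture with DOX in N2B27. Following the methods, they are counted as DOX-free below. Every group, controls included, came from mice with the trans-activator M2rtTA at Rosa26 and 1 polycistronic OSKM transgene at Col1a1. The ESCs and iPSCs grew on fibroblast feeder cells.

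OCT4 is a POU-domain transcription factor and SOX2 an HMG-box factor, and they bind together at many enhancers of pluripotent cells. KLF4 is a zinc-finger factor that LIF induces through STAT3 in mouse ESCs and that fibroblasts express as well. In reprogramming the 3 factors, often with c-MYC, are supplied from a transgene until the cell's own genes take over.

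A gene-level FPKM (fragments mapped to a gene, scaled by transcript length and by the mapped fragments of the library) counts every fragment that falls on the gene's exons. The transgene carries coding sequence, so its reads can be counted with those of the chromosomal gene, and the values below are totals of both sources. The study's forward PCR primers are shown because they were meant to separate what FPKM pools. The reverse primer for endogenous Oct4 had no exact match in the main Pou5f1 transcript, so that PCR product could not be placed. Matched to GRCm38, the forward primers for the total transcripts lie in coding exons, which both sources can hold, and those for the endogenous transcripts lie in untranslated exon sequence. Capitals mark coding bases, and all are written 5′ to 3′.
total Oct4, exon 4 of Pou5f1 on the + strand, chr17:35510097-35510118: GCAGATCACTCACATCGCCAAT
endogenous Oct4, 3′ UTR in exon 5 of Pou5f1, chr17:35510636-35510660: actgaggagggattaaaagcacaac
total Sox2, single exon of Sox2 on the + strand, chr3:34650997-34651016: ACAGATGCAACCGATGCACC
endogenous Sox2, 3′ UTR of the same exon, chr3:34651540-34651564: aaattaacgcaaaaaccgtgatgcc
total Klf4, exon 4 of Klf4 on the - strand, chr4:55529720-55529739: GCACACCTGCGAACTCACAC
endogenous Klf4, 5′ UTR in exon 1 of Klf4, chr4:55532105-55532127: tcggacctacttatctgccttgc

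The share of the transcript that the transgene can match differs between the genes. In the GENCODE M21 annotation of GRCm38, Pou5f1 (ENSMUSG00000024406) spans chr17:35506018-35510772, and 1056 of the 1362 bases of its main transcript are coding (77.5%). Sox2 (ENSMUSG00000074637) spans chr3:34650405-34652461 with 957 of 2057 bases coding (46.5%). Klf4 (ENSMUSG00000003032) spans chr4:55527143-55532466 with 1449 of 3029 bases coding (47.8%). If the transgene holds coding sequence only, its transcript adds fewer fragments per molecule to each total than a full endogenous transcript does. This gap is larger for Sox2 and Klf4 than for Pou5f1. The sequence of the transgene was not at hand. Pou5f1 overlaps the antisense gene Gm19553, listed at 1.21 FPKM or less in every library. Sox2 lies within Sox2ot, listed at 0.671 FPKM or less. The library kit is not stated to keep the strand, so reads of Gm19553 cannot be told apart from those of Pou5f1. Sox2ot lies on the same strand as Sox2, so strand would not separate these.

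Depth was not limiting for these genes outside the MEF cells. Deposited coverage and FPKM together correspond to 16700000 to 20200000 fragments per library if each covered 300 bases. On that basis the ESC and iPSC libraries held 8396 to 17367 fragments of Pou5f1, 2588 to 7857 of Sox2 and 870 to 4978 of Klf4. The counting error was at most 1.1%, 2.0% and 3.4% of the value, for counting error only. Replicates correlated at r = 0.931 in OSKM-iPSCs and 0.973 to 0.989 in the other groups (log2 scale, across genes). The labels do not say whether replicates were separate cultures, so p-values measure the spread between these libraries.

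Myc, the remaining factor of the same transgene, showed the DOX groups plainly. It stood at 67.9 to 141 FPKM in the 6 OSKM-ESC libraries and at 7.57 to 13.6 FPKM in the 6 2iL-ESC libraries, with no overlap. In iPSCs it was at 71.9 and 42.4 FPKM in OSKM-iPSC clones 1 and 3 and at 16.7 and 16.1 FPKM in 2iL-iPSC clones 3 and 6. The MEF cells held 31.3 and 35.7 FPKM.

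With the settings used here, none of Oct4, Sox2 and Klf4 was called higher with DOX in a comparison with 2iL cells, although both day 25 libraries of OSKM-ESCs held more Pou5f1 than those of 2iL-ESCs, a difference called under quantile normalization and without 1 library. Over all days the Pou5f1 total was not shown to differ and the Klf4 total did not pass the test. The Sox2 mean of OSKM-ESCs was 0.662 of that of 2iL-ESCs. By day, Sox2 and Klf4 were lower than in 2iL-ESCs at day 25, and Sox2 and Pou5f1 at day 38. From day 18 to day 25, mean Sox2 went from 96.7 to 106.2 FPKM in OSKM-ESCs and from 116.3 to 218.3 in 2iL-ESCs. Mean Klf4 was 33.4 FPKM on both days in OSKM-ESCs and went from 30.4 to 93.5 in 2iL-ESCs.

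**Figure D1:**
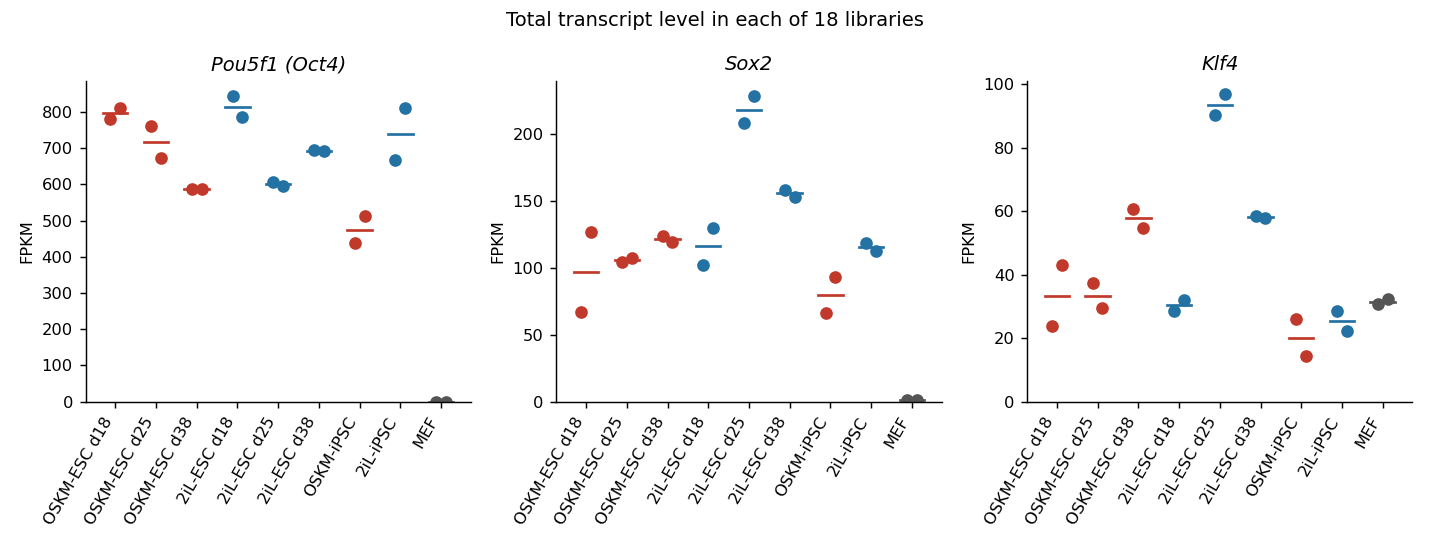
FPKM (y axis, linear, from 0) of Pou5f1, Sox2 and Klf4 in each library, with groups on the x axis, a point per library and a line at the group mean. DOX groups are red, 2iL groups blue and MEF cells grey. Pou5f1 was listed at 0 and Sox2 stood under 1.6 FPKM in MEF cells, whereas Klf4 in MEF cells lay within the range of the ESCs.

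Pou5f1, which encodes OCT4, was among the most abundant transcripts of the ESCs and iPSCs, ranking 69 to 122 by FPKM within the 16 libraries. OSKM-ESCs held 781 and 810 FPKM at day 18, 762 and 672 at day 25 and 586 and 587 at day 38. The 2iL-ESCs held 843 and 786 FPKM at day 18, 608 and 596 at day 25 and 694 and 692 at day 38. The media overlapped over all days, with means of 699.8 ± 99.1 and 703.2 ± 97.3 FPKM (SD, n = 6 each). The log2 difference, DOX minus 2iL, was -0.0079 with a 95% interval of -0.18 to 0.16 (limma, adjusted p = 0.941, exact permutation p = 0.952).

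By day, Pou5f1 did not differ at day 18 (log2 -0.03, limma adjusted p = 0.85). At day 25 both OSKM-ESC libraries lay above both 2iL-ESC libraries, by 0.25 on the log2 scale (95% interval 0.02 to 0.48), which did not pass the test (limma adjusted p = 0.0728) but passed without replicate 2 of those OSKM-ESCs (adjusted p = 0.0124). At day 38 both OSKM-ESC libraries lay below both 2iL-ESC libraries, by 0.24 (SE 0.03, limma adjusted p = 0.00105). The medium effect on Pou5f1 differed between the days, with a range of 0.49 (limma F test, adjusted p = 0.0142), a call lost without replicate 2 of the day 25 2iL-ESCs (adjusted p = 0.059). The day 38 call was lost under quantile normalization (-0.06, adjusted p = 0.136) and with all 9 groups in 1 fit (adjusted p = 0.0825).

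Sox2 encodes the partner of OCT4. In OSKM-ESCs it stood at 66.8 and 127 FPKM at day 18, 105 and 108 at day 25 and 124 and 120 at day 38. In 2iL-ESCs it stood at 102 and 130 FPKM at day 18, 208 and 228 at day 25 and 158 and 153 at day 38. Every OSKM-ESC library lay below 5 of the 6 2iL-ESC libraries, and the overlap came from the 2iL-ESC library at 102 FPKM, which 5 OSKM-ESC libraries exceeded. Over all days the means were 108.2 ± 22.1 and 163.5 ± 47.3 FPKM (SD, n = 6 each). Sox2 was lower in OSKM-ESCs by 0.57 on the log2 scale (SE 0.16, limma adjusted p = 0.00885, exact permutation p = 0.0238). The permutation left out day, with which Sox2 moved in 2iL-ESCs. OSKM-ESCs were lower in 31 of 36 pairs of libraries. This was the 1 member called over all days, where 24.4% of the 14016 genes tested were called lower and 53.8% in either direction.

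The day 18 difference of Sox2 did not pass the test (log2 -0.32, limma adjusted p = 0.406), and its sign rested on replicate 1 of the OSKM-ESCs, without which it was 0.13. At day 25 Sox2 stood at 0.487 of its 2iL level, a log2 difference of -1.03 (SE 0.08, limma adjusted p = 0.00072), and the groups did not overlap. At day 38 it was lower than in 2iL-ESCs by 0.35 (SE 0.04, limma adjusted p = 0.00109), again without overlap. That call was lost with all 9 groups in 1 fit (adjusted p = 0.27). The medium effect on Sox2 was not shown to differ between days (range 0.71, limma F test, adjusted p = 0.181). Without either day 18 OSKM-ESC library it did, with an adjusted p of 0.00275 without replicate 1 and 0.02 without replicate 2.

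Klf4, the LIF-responsive factor of the 3, moved most between days. OSKM-ESCs held 23.8 and 42.9 FPKM at day 18, 37.3 and 29.4 at day 25 and 60.5 and 54.8 at day 38. The 2iL-ESCs held 28.7 and 32.01 FPKM at day 18, 90.3 and 96.8 at day 25 and 58.6 and 57.9 at day 38. Day 25 was the single day on which the media did not overlap. There Klf4 stood at 0.357 of its 2iL level, a log2 difference of -1.47 (SE 0.13, limma adjusted p = 0.000948). The log2 difference was 0.08 at day 18 (limma adjusted p = 0.833) and -0.02 at day 38 (95% interval -0.17 to 0.14, limma adjusted p = 0.836). The medium effect on Klf4 differed between the days, with a range of 1.55 (limma F test, adjusted p = 0.00604).

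Over all days Klf4 averaged 41.5 ± 14.3 FPKM in OSKM-ESCs and 60.7 ± 28.4 FPKM in 2iL-ESCs (SD, n = 6 each). The log2 difference was -0.47 (95% interval -0.99 to 0.05) and did not pass the test (limma adjusted p = 0.116, exact permutation p = 0.214). Without replicate 2 of the day 18 OSKM-ESCs it was -0.64 and passed (limma adjusted p = 0.0264). With all 9 groups in 1 fit the same difference of -0.47 passed as well (adjusted p = 0.0205).

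Read against the background, none of the 3 genes was called at day 18, where 43.4% of 12774 genes were called and 25.7% called higher. At day 25 Sox2 and Klf4 were called lower, where 46% of 13098 genes were called, 20.7% higher and 25.3% lower. At day 38 Pou5f1 and Sox2 were called lower, where 59.8% of 13142 genes were called, 34.6% higher and 25.2% lower. The medium effect differed between days for 2 of 3 members, and for 37.9% of the 14016 genes tested.

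**Figure D2:**
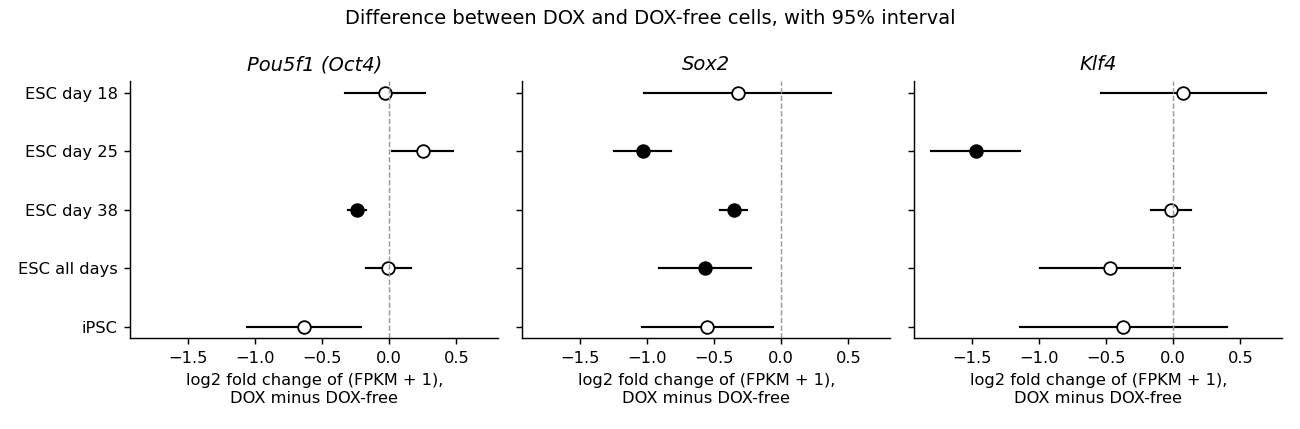
Log2 fold change of FPKM + 1, DOX minus DOX-free (x axis), for Pou5f1, Sox2 and Klf4 in ESCs by day, in ESCs over all days and in iPSCs, with bars for the 95% interval of the limma fit. Filled points passed an adjusted p of 0.05, and the filled points are all below 0, the lowest being Klf4 at day 25 at -1.47.

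Levels also moved between days in 2iL-ESCs, for Pou5f1 and Klf4 in another pattern than in OSKM-ESCs. Within 2iL-ESCs, whose medium was not changed, all 3 members differed between days (50.8% of 12726 genes tested did). The range between day means was 0.44 for Pou5f1 (limma F test, adjusted p = 0.00267), 0.91 for Sox2 (adjusted p = 0.0035) and 1.59 for Klf4 (adjusted p = 0.000188). Sox2 and Klf4 were highest and Pou5f1 lowest at day 25. Under quantile normalization the call of Pou5f1 was lost (range 0.13, adjusted p = 0.152). Within OSKM-ESCs 1 of 3 members was called, against 38.6% of 13073 genes tested. Pou5f1 went from a mean of 795.7 FPKM at day 18 to 717 at day 25 and 586.7 at day 38 (range 0.44, limma F test, adjusted p = 0.0343), and 4 of 8 other settings, among them TPM (adjusted p = 0.0744), and 4 of 6 fits without a library put it past 0.05. Klf4 rose to its highest mean, 57.7 FPKM, at day 38 without passing the test (adjusted p = 0.0559), and Sox2 did not pass (adjusted p = 0.424). Without replicate 2 of day 18 both passed (adjusted p = 0.0117 for Klf4 and 0.00892 for Sox2), and Klf4 passed without replicate 1 as well (adjusted p = 0.0346).

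Ordered by level, the 9 groups formed overlapping steps rather than 2 blocks by medium. For Pou5f1 the order ran from 2iL-ESCs of day 18 (814.7 FPKM) through OSKM-ESCs of day 18, 2iL-iPSCs, OSKM-ESCs of day 25 and 2iL-ESCs of day 38 to 2iL-ESCs of day 25, OSKM-ESCs of day 38, OSKM-iPSCs (475.1 FPKM) and MEF cells. The first 5 of these overlapped their neighbour below or above, and the remaining steps did not. For Sox2 the 2iL-ESCs of days 25 and 38 were the highest groups, each apart from the next. They were followed by OSKM-ESCs of day 38, 2iL-ESCs of day 18, 2iL-iPSCs, OSKM-ESCs of days 25 and 18 and OSKM-iPSCs, among which 4 of 5 neighbours overlapped. For Klf4 the 2iL-ESCs of day 25 were highest, followed by both media at day 38, which overlapped. Below them came OSKM-ESCs of days 18 and 25, MEF cells and 2iL-ESCs of day 18, each overlapping the next, and then the iPSCs. Between the highest and the lowest ESC or iPSC group the mean level differed 1.71-fold for Pou5f1, 2.74-fold for Sox2 and 4.64-fold for Klf4.

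In iPSCs each of the 3 totals had a lower mean in the OSKM clones, and none passed the test. Pou5f1 stood at 437 and 513 FPKM in OSKM-iPSC clones 1 and 3 and at 668 and 811 in 2iL-iPSC clones 3 and 6, without overlap, a log2 difference of -0.64 (95% interval -1.06 to -0.21, limma adjusted p = 0.0781). Sox2 stood at 66.4 and 93.2 FPKM against 118 and 113, also without overlap, a log2 difference of -0.55 (95% interval -1.04 to -0.06, limma adjusted p = 0.138) that was -0.31 without OSKM-iPSC clone 1. Klf4 stood at 26.1 and 14.2 FPKM against 28.6 and 22.4, with overlap, a log2 difference of -0.37 (95% interval -1.14 to 0.40, limma adjusted p = 0.449). In this comparison 7.96% of 13653 genes were called. With the spread estimated over all 9 groups, the same difference of Pou5f1 passed (adjusted p = 0.000391). Passage goes with the medium in these clones, so both cannot be told apart, and the labels disagree with the methods on DOX in the 2iL-iPSCs.

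The medium effect on Pou5f1 differed between iPSCs and ESCs. It was -0.64 in iPSCs, which alone did not pass (limma adjusted p = 0.0781). In ESCs it was -0.0079, an average of -0.03, 0.25 and -0.24 at days 18, 25 and 38. In iPSCs passage went with the medium, and the labels disagree with the methods on DOX. The difference between both effects was -0.63 (SE 0.13 from the spread within groups, limma adjusted p = 0.00831), where 14.2% of 14621 genes were called, 8.67% higher and 5.55% lower. It kept its sign and passed in all alternatives run, including those without a library. For Sox2 the difference between both effects was 0.02 (95% interval -0.58 to 0.62, limma adjusted p = 0.97), and for Klf4 it was 0.10 (95% interval -0.61 to 0.80, limma adjusted p = 0.869). These intervals are wide, and both signs turned without single libraries.

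The MEF cells differed sharply among the 3 genes. Pou5f1 was listed at 0 in both MEF libraries, so no fold is given. Sox2 stood at 1.15 and 1.59 FPKM in MEF cells, about 46 and 57 fragments, and was higher in OSKM-iPSCs (58.3-fold by mean FPKM, limma adjusted p = 0.00107), 2iL-iPSCs (84.5-fold, adjusted p = 1.25e-05), OSKM-ESCs (79.0-fold, adjusted p = 1.38e-07) and 2iL-ESCs (119-fold, adjusted p = 7.15e-09). The first of these calls was lost without either MEF library (adjusted p = 0.0652 and 0.0625). Genes called in either direction made up 60.3%, 78%, 81.1% and 86.2% of those tested in these comparisons, genes called higher 34%, 40.6%, 44.8% and 46.5%, and genes called lower 26.4%, 37.4%, 36.2% and 39.8%.

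Klf4 in MEF cells was at 30.6 and 32.3 FPKM. Against them, 2iL-ESCs were higher by 0.79 on the log2 scale (SE 0.06, limma adjusted p = 7e-06), although their day 18 libraries lay within or below the MEF range. This SE holds the spread within days only, whereas the day means of 2iL-ESCs ranged over 1.59. With all 9 groups in 1 fit the SE was 0.22 (limma adjusted p = 0.00531). The fit of OSKM-ESCs against MEF cells likewise measured the spread within days. OSKM-ESCs differed by 0.32 (95% interval -0.15 to 0.78, limma adjusted p = 0.173) and passed without replicate 1 of day 18 (0.45, adjusted p = 0.00703). Both iPSC groups lay below the MEF libraries, by log2 differences of -0.67 in OSKM-iPSCs (limma adjusted p = 0.121) and -0.30 in 2iL-iPSCs (limma adjusted p = 0.107), which did not pass. Without OSKM-iPSC clone 1 the former was -1.09 (adjusted p = 0.00996), and without 2iL-iPSC clone 3 the latter was -0.47 (adjusted p = 0.026).

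The ratio of 2 members within a library does not depend on how libraries are scaled, and a polycistronic transcript holds the factors in equal numbers. The Pou5f1/Sox2 ratio of FPKM was 11.7 and 6.4 at day 18, 7.29 and 6.23 at day 25 and 4.74 and 4.91 at day 38 in OSKM-ESCs. In 2iL-ESCs it was 8.23 and 6.04, then 2.92 and 2.61, then 4.38 and 4.52. Both DOX libraries lay above both 2iL libraries at days 25 and 38, and the media overlapped at day 18. Single days were not tested for this ratio. Over all days the geometric means were 6.55 and 4.42, a log2 difference of 0.57 (exact permutation p = 0.115, adjusted over 3 ratios 0.344). The permutation left out day, with which this ratio moved in both media.

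The Pou5f1/Klf4 ratio ran from 9.69 to 32.8 in OSKM-ESCs and from 6.16 to 29.4 in 2iL-ESCs, and its geometric means of 17.6 and 12.7 were not shown to differ (exact permutation p = 0.331, adjusted 0.497). The Sox2/Klf4 ratio varied least in ESCs, at 2.04 to 3.67 and 2.31 to 4.06, with geometric means of 2.69 and 2.88 (log2 difference -0.10, exact permutation p = 0.615, adjusted 0.615). In 2iL-ESCs of day 25 the Pou5f1/Sox2 and Pou5f1/Klf4 ratios were the lowest of all ESC and iPSC libraries.
In iPSCs the Pou5f1/Sox2 ratio was 6.58 and 5.51 in OSKM clones 1 and 3 and 5.65 and 7.18 in 2iL clones 3 and 6. The OSKM clones differed most in Sox2/Klf4, at 2.54 and 6.54, around the 2iL clones at 4.13 and 5.05.

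**Figure D3:**
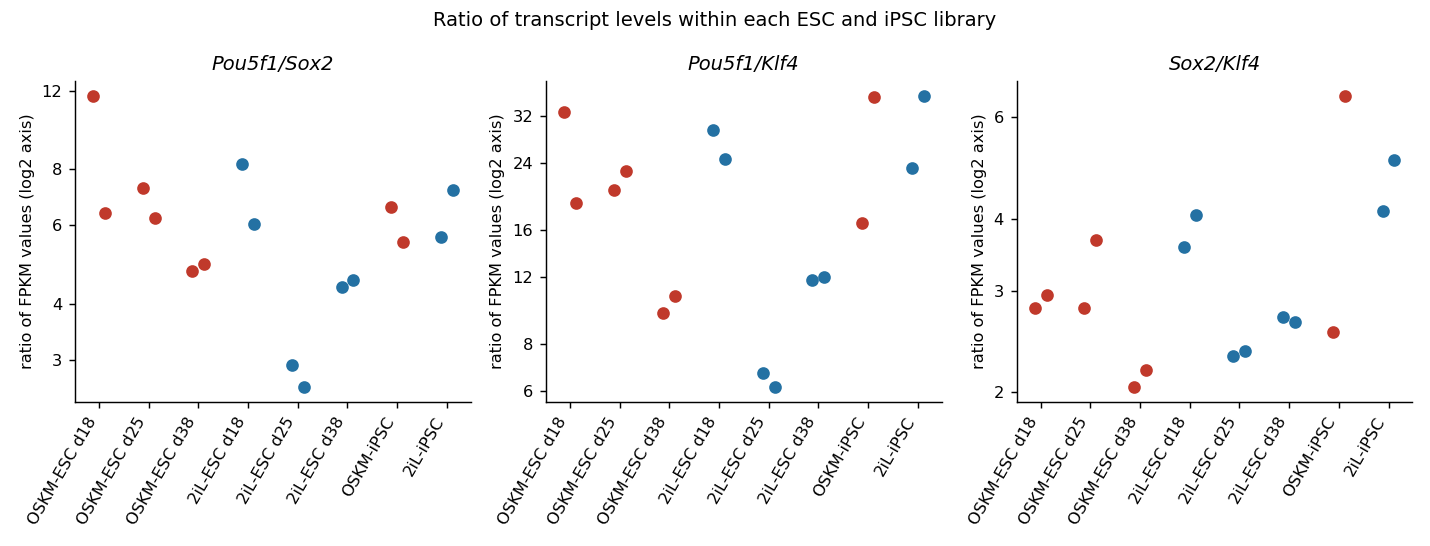
Ratio of FPKM values of each pair of the genes (y axis, log2 scale) in every ESC and iPSC library, a point per library, DOX groups in red and 2iL groups in blue. The 2iL-ESCs of day 25 lie lowest in the first 2 panels, at 2.92 and 2.61 for Pou5f1/Sox2 and 6.73 and 6.16 for Pou5f1/Klf4.

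Across the 8 DOX-free ESC and iPSC libraries, Sox2 and Klf4 levels moved together (Pearson r = 0.965, Spearman rho = 0.929) and Pou5f1 moved against Sox2 (r = -0.882, rho = -0.833) and against Klf4 (r = -0.849, rho = -0.690). Across the 8 DOX libraries, r was 0.655 for Sox2 and Klf4, 0.307 for Pou5f1 and Sox2 and 0.258 for Pou5f1 and Klf4. Without the 2 libraries farthest from the median of the first gene, these r were 0.909, -0.782 and -0.763 without DOX and 0.895, -0.471 and 0.082 with DOX. In the 6 OSKM-ESC libraries alone, r was -0.436 for Pou5f1 and Sox2 and -0.655 for Pou5f1 and Klf4, so the sign with DOX rested on the iPSC clones. The labels of the 2iL-iPSCs disagree on DOX. In the 6 2iL-ESC libraries alone, r was 0.973 for Sox2 and Klf4, -0.991 for Pou5f1 and Sox2 and -0.994 for Pou5f1 and Klf4. The libraries fall in 4 groups of 2 per medium, so these values describe group patterns.

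Over all 16 ESC and iPSC libraries, the genes most like each member by Pearson r of log2(FPKM + 1) were taken from 5985 genes with a mean of at least 10 FPKM. For Pou5f1 they were Clpp (0.960), a mitochondrial protease subunit, Nudt16l1 (0.911), Qtrt1 (0.908), Trir (0.900) and Spr (0.896). For Sox2 they were Gnl1 (0.946), the telomere protein gene Terf2 (0.917), Pak4 (0.915), BC030867 (0.909) and Cic (0.906). For Klf4 they were Ppp1r15b (0.966), a regulatory subunit of an eIF2alpha phosphatase, the transcription factor gene Nfe2l1 (0.929), the kinase gene Pak4 (0.921), Patl1 (0.906) and Cxxc5 (0.890). Pak4 was near both Sox2 and Klf4.

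The families of the 3 factors were counted for other members that differed between OSKM-ESCs and 2iL-ESCs over all days. There 29.5% of genes were called higher and 24.4% lower, and the median log2 change of all genes was 0.03. Here and below, rose and fell mean higher and lower in the OSKM medium than in 2iL. Of 7 other POU genes tested, 2 were higher and 2 lower, with a median of -0.11. Pou3f1, which encodes a POU factor of the epiblast and of neural and glial cells, rose from 1.202 ± 0.97 to 20.0 ± 11.9 FPKM (SD, n = 6 each, log2 change 3.14, limma adjusted p = 5.28e-06). Pou2f1, a widely expressed POU gene, rose by a log2 change of 0.22 (adjusted p = 0.0255), and Pou2f3 fell by 1.52 (adjusted p = 1.78e-05). Under median-ratio scaling and quantile normalization 1 POU gene was called higher and 2 were called lower.

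Of 9 other SOX genes tested, 5 were higher and 1 lower with DOX, with a median of 0.79, opposite to Sox2. Sox9, 1 of the higher calls, entered the test only through the OSKM-ESC libraries. Sox3, of the same subgroup as Sox2, rose from 2.13 ± 0.60 to 12.9 ± 5.5 FPKM (SD, n = 6 each, log2 change 2.04, limma adjusted p = 2.88e-06). Sox11, a gene of neural progenitors, rose from 1.79 ± 0.66 to 13.8 ± 4.9 FPKM (SD, n = 6 each, log2 change 2.38, adjusted p = 3.81e-07). Sox13 rose by 0.79 (adjusted p = 0.000104) and Sox12 had a log2 change of 0.28 that did not pass (adjusted p = 0.0956). Sox2, at 108.2 FPKM, remained above these in OSKM-ESCs on the FPKM scale, which is per length.

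Of 13 other KLF genes tested, 1 was higher and 7 lower, with a median of -0.47. Klf2 and Klf5, which can stand in for Klf4 in mouse ESCs, had the largest changes. Klf2 fell from 145.7 ± 44.1 to 11.95 ± 3.84 FPKM (SD, n = 6 each, log2 change -3.49, limma adjusted p = 4.44e-08) and Klf5 from 56.9 ± 12.4 to 7.38 ± 2.16 FPKM (SD, n = 6 each, log2 change -2.80, adjusted p = 8.17e-08). Neither overlapped between media, whereas Klf4 did. The higher call among KLF genes was absent under median-ratio scaling.

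Genes placed upstream of the members in mouse ESCs were counted against the same 29.5% of genes called higher and 24.4% called lower. Of 5 genes of the LIF and STAT3 arm that feeds Klf4, 4 were lower and 0 higher by limma. Socs3, the feedback inhibitor of the arm, fell from 43.8 ± 7.5 to 5.10 ± 0.56 FPKM (SD, n = 6 each, log2 change -2.86, limma adjusted p = 4.06e-10), and Stat3 fell by 2.01 (adjusted p = 8.82e-09). Of 4 activators of Pou5f1 tested, 2 were lower and 1 higher. The nuclear receptor gene Nr5a2 fell from 27.9 ± 1.1 to 4.01 ± 0.74 FPKM (SD, n = 6 each, log2 change -2.54, adjusted p = 1.31e-09) and Esrrb fell by 2.51 (adjusted p = 3.45e-07), whereas Sall4 did not pass (log2 -0.14, adjusted p = 0.211).

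Of 3 repressors of Pou5f1 tested, 2 were higher and 0 lower. Nr2f6 rose from 6.63 ± 3.55 to 19.55 ± 5.23 FPKM (SD, n = 6 each, log2 change 1.71, limma adjusted p = 0.00665) with 1 2iL-ESC library listed at 0, and the other, Nr2f2, stood at 0.0502 to 0.137 FPKM in 2iL-ESCs and 0.286 to 1.27 in OSKM-ESCs, so that it entered the test only through the group where it was higher. Nr6a1, which silences Pou5f1 in differentiating cells, stood at 23.9 ± 7.4 and 19.4 ± 3.1 FPKM (SD, n = 6 each, adjusted p = 0.0506). It passed under quantile normalization, TPM and without replicate 1 of day 18, where 3 or more repressors were called higher.

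Of 10 targets of OCT4 and SOX2, 7 were lower and 2 higher with DOX, with a median of -1.97 (Sox2 itself was called lower over all days, and Pou5f1 at day 38). Nanog fell from 246.7 ± 33.3 to 38.8 ± 13.1 FPKM (SD, n = 6 each, log2 change -2.70, limma adjusted p = 2.54e-07), Spp1 fell by 3.62 (adjusted p = 6.01e-09) and Tdgf1 had a log2 change of -1.23 (adjusted p = 1.53e-06). Utf1, a chromatin-associated target, rose from 140.4 ± 18.1 to 302.4 ± 157 FPKM (SD, n = 6 each, log2 change 0.94, adjusted p = 0.00479). Of 6 targets of KLF4, 3 were lower and 2 higher. The lists share genes: Nanog and Lefty1 are on both target lists, and Esrrb and Sall4 are both OCT4 and SOX2 targets and activators of Pou5f1. Tcl1, a co-activator of AKT, fell by 3.05 (adjusted p = 8.1e-08), and the E-cadherin gene Cdh1 had a log2 change of -0.11 (adjusted p = 0.503).

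In iPSCs the same lists were counted against 5% of genes called higher and 2.96% called lower, with a median of all genes of 0.09. Of 10 targets of OCT4 and SOX2, 7 were lower and 1 higher in OSKM-iPSCs, including Nanog at 46.0 against 201.1 FPKM (log2 change -2.13, limma adjusted p = 0.0116). Of 13 KLF genes 3 were lower and 1 higher, of 5 genes of the LIF and STAT3 arm 3 were lower and 0 higher, and of 4 activators of Pou5f1 3 were lower and 0 higher, among them Nr5a2 (log2 change -3.37, adjusted p = 0.00636) and Sall4 (-0.93, adjusted p = 0.0279). Of 6 KLF4 targets 2 were lower and 2 higher. Of 7 POU genes 1 rose, Pou3f1 (3.85, adjusted p = 0.006), which entered the test only through OSKM-iPSCs, and 1 fell, Pou2f3 (-2.24, adjusted p = 0.015), and of 6 SOX genes 1 rose, Sox13 (1.11, adjusted p = 0.0289). Of 3 repressors 0 were called. Without OSKM-iPSC clone 1, the median of the KLF genes turned from -0.20 to 0.13, that of the POU genes from 0.28 to -0.01 and that of the KLF4 targets from 0.13 to -0.02, and 1 of 2 repressors tested was called higher. Without clone 3 the median of the POU genes was -0.19.

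**Figure D4:**
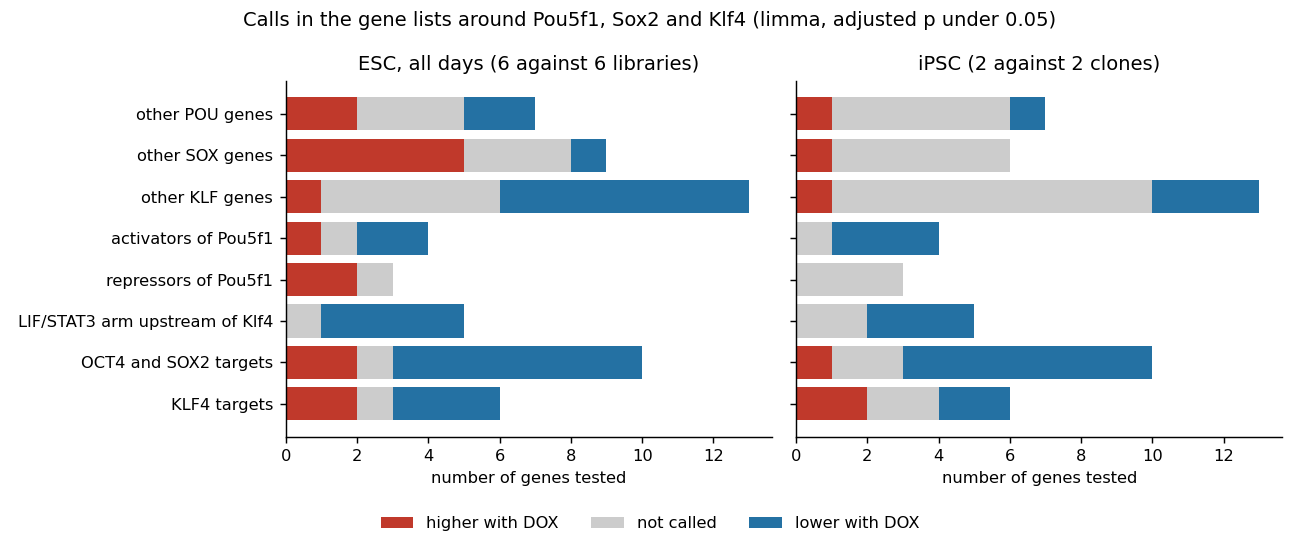
Number of genes tested (x axis) in each list around the 3 factors, divided into genes called higher with DOX (red), not called (grey) and called lower with DOX (blue) by limma at an adjusted p of 0.05, in ESCs over all days and in iPSCs. Lower calls lead among KLF genes, the LIF and STAT3 arm and the OCT4 and SOX2 targets, with 7, 4 and 7 genes in ESCs.

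Some markers of other cell types differed between the media, and their part in the totals was not tested. In bulk libraries, fewer cells of a type and less RNA per cell cannot be told apart. Of 9 fibroblast markers tested in ESCs 8 were higher and 0 lower, against 29.5% and 24.4% of all genes, but 4 of the 8 (Col3a1, Dcn, Pdgfra and Postn) entered the test only through OSKM-ESCs. The sum of the list of 10 markers was 22 to 39.4 FPKM in OSKM-ESCs, 4.34 to 7.04 in 2iL-ESCs and 1410 and 1680 in MEF cells. In OSKM-iPSCs it was 98.5 in clone 1 and 5.95 in clone 3, and in 2iL-iPSCs 4.14 and 2.68, with Dcn at 0 in both. Clone 1 held the lower Pou5f1 and Sox2 and the higher Klf4 of both OSKM clones. Of 5 mesoderm markers tested in ESCs 2 were higher and 0 lower, 1 of them, Mesp1, entering the test only through OSKM-ESCs. In OSKM-ESCs the sum of the list was 17.1 to 54 FPKM at days 18 and 25 and 217 and 220 at day 38. There it was carried mainly by the primitive streak gene T (up to 198.5 FPKM). In 2iL-ESCs the sum was 6.24 to 9.31 FPKM. Of 5 neural markers 4 were higher, Pax6 entering the test only through OSKM-ESCs, and 1 lower, Tubb3 (log2 change -0.83, limma adjusted p = 1.26e-05). Of 3 trophoblast markers 2 were higher and 1 lower, Tfap2c (-0.98, adjusted p = 8.07e-05). Both sums overlapped between the media. The neural sum was 57.2 to 73.9 FPKM in OSKM-ESCs and 58.1 to 82.4 in 2iL-ESCs. The trophoblast sum was 17.4 to 44.9 FPKM in OSKM-ESCs and 22.1 to 49.1 in 2iL-ESCs. The single calls among 2 endoderm and 2 epithelium markers, Foxa2 and Krt14, also entered only through OSKM-ESCs, where they were higher. Neurog2 and Sox1 were at 0 in every ESC and iPSC library. Of 10 pluripotency markers 7 were lower and 2 higher. Nanog, Zfp42, Esrrb, Fgf4, Utf1, Sall4 and Tdgf1 among them were also counted as OCT4 and SOX2 targets, so both counts share genes. The sum of the markers was 814 to 1310 FPKM in OSKM-ESCs, 2160 to 2750 in 2iL-ESCs and 0.466 or less in MEF cells. In iPSCs 0 of 8 fibroblast, 0 of 3 mesoderm and 0 of 2 epithelium markers tested were called. Of 4 neural markers 0 were higher and 1 lower, Tubb3. Of 4 trophoblast markers 1 was higher, Krt7, which entered only through OSKM-iPSCs. Of 10 pluripotency markers 5 were lower and 1 higher, against 2.96% and 5% of all genes.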

How the data were processed

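RNA-Seq was done on 18 mouse libraries made with poly-T beads. The authors aligned reads to GRCm38 (the submitters' processing notes name STAR 2.7.1a, StringTie 2.0 and Cuffdiff 2.2.1) and kept uniquely mapped reads. The deposited FPKM values, the deposited coverage (a signal, mean reads per base, not normalized) and the deposited TPM values come per gene and library. TPM had failed in 2 libraries and was recomputed from FPKM. Of 55471 genes, 2 with a failed value were left out, and values of 11 identifiers listed repeatedly were summed.

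Differences were tested with limma 3.58.1 in R 4.3.3 (lmFit, then eBayes with a mean trend) on log2 values after adding 1 to each FPKM, for genes above 1 FPKM in any compared library. Day entered as a covariate in the fit over all days. Fits of ESCs against MEF cells, and of the medium effect in iPSCs against that in ESCs, averaged the days. Their SE and p-values hold the spread within days only. Benjamini-Hochberg adjustment covered every gene tested, and calls had an adjusted p under 0.05. Fold changes on this scale understate changes of low genes. Exact permutation tests were 2-sided over 924 splits (smallest p 0.0022) and left out day. Scripts were tested on simulated data.

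The members and lists were chosen with earlier results of these data known. In each list of family members, upstream genes and targets, the text names the 2 genes with the highest mean FPKM over the ESC and iPSC libraries. It also names the 2 with the largest change over all days. The marker lists did not follow this rule. Genes that entered a test through 1 group only are named in addition. Genes compared for likeness exclude Gm and Rik symbols. Primers were searched for exact matches in the main GENCODE M21 transcripts, and the reverse primer for endogenous Oct4 had none. Alternatives were a pseudocount of 0.1, no filter, quantile normalization, scaling by median ratios, TPM, a fit with no trend, all 9 groups in 1 fit, a replicate block and each library left out. Coverage in place of FPKM and the alternatives for list counts were chosen after seeing the data.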

Additional observations from a re-analysis of the deposited data

Results flagged for a closer look

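The Sox2 level of OSKM-ESC day 18 replicate 1, 66.8 FPKM, stood apart from the other 5 OSKM-ESC libraries at 105 to 127 FPKM, with a gap of 0.632 of the whole range (above Dixon's limit at the 95% level). It was the 1 of 6 sets of 6 libraries past the limit, which chance gives for about 1 in 20 sets. Klf4 was also lowest in this library, at 23.8 FPKM, and Pou5f1, at 781 FPKM, was not.

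The medium effect differed between days for Pou5f1, with a range of 0.49 on the log2 scale (limma F test, adjusted p = 0.0142), where the DOX libraries lay above the 2iL libraries at day 25 and below them at day 38. It differed for Klf4 with a range of 1.55 (adjusted p = 0.00604), from 0.08 at day 18 to -1.47 at day 25. The medium effect on Pou5f1 in iPSCs minus that in ESCs was -0.63 (limma adjusted p = 0.00831), with all 4 iPSC pairs of clones lower with DOX. The iPSC effect alone did not pass (limma adjusted p = 0.0781), and passage went with the medium there.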

How the results depend on the processing

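Of 298 alternatives of 38 results that kept all libraries, 274 kept the direction and the side of the threshold, and 8 turned a sign, each of a value that had not been called. Of 288 that left out 1 library, 250 kept both and 21 turned a sign. The cause was not tested.

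Quantile normalization gave a log2 difference between media for Pou5f1 of 0.083 over all days and 0.037 at day 18, and for Klf4 of 0.026 at day 38. Under it Pou5f1 passed at day 25 (0.26, adjusted p = 0.0322) but not at day 38 (-0.059, 0.136). It gave a Pou5f1 interaction of 0.31 (0.143), day ranges of 0.29 with DOX (0.143) and 0.13 in 2iL (0.152), and -0.40 for Klf4 in 2iL-iPSCs against MEF cells (0.0388). TPM gave Pou5f1 differences of 0.033 over all days and 0.0083 at day 18, a Klf4 difference of 0.054 at day 38 and a Pou5f1 day range with DOX of 0.35 (0.0744). Scaling by median ratios gave -0.023 for Klf4 at day 18 and -0.051 for the Sox2 effect in iPSCs against ESCs. The Pou5f1 day range with DOX, 0.44, had an adjusted p of 0.126 with no filter and 0.0519 without trend. With all 9 groups in 1 fit, which pools the spread, Klf4 over all days stayed at -0.47 (0.0205), Pou5f1 at day 38 at -0.24 (0.0825), Sox2 at day 38 at -0.35 (0.27), Pou5f1 in iPSCs at -0.64 (0.000391), Klf4 in OSKM-iPSCs against MEF cells at -0.67 (0.0396) and the Klf4 day range with DOX at 0.83 (0.0465). Median ratios moved the median of all genes against MEF cells by over 0.1, from 0.187 to 0.029 in OSKM-iPSCs, 0.150 to 0.011 in OSKM-ESCs and 0.145 to 0.003 in 2iL-ESCs.

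Without single libraries, Pou5f1 ranged from -0.063 to 0.021 over all days, -0.084 to 0.017 at day 18 and 0.16 to 0.34 at day 25. Sox2 at day 18 ranged from -0.78 to 0.13. Klf4 ranged from -0.64 to -0.30 over all days, -0.34 to 0.49 at day 18, -0.086 to 0.054 at day 38 and -0.79 to 0.042 in iPSCs, where Sox2 ranged from -0.79 to -0.31. The interaction ranged from 0.40 to 0.58 for Pou5f1 and 0.64 to 1.16 for Sox2. The effect in iPSCs against ESCs ranged from -0.22 to 0.26 for Sox2 and -0.32 to 0.51 for Klf4. Against MEF cells, Sox2 in OSKM-iPSCs ranged from 4.84 to 5.32, and Klf4 from -1.09 to -0.26 in OSKM-iPSCs, -0.47 to -0.13 in 2iL-iPSCs and 0.18 to 0.45 in OSKM-ESCs. Day ranges with DOX were 0.41 to 0.47 for Pou5f1, 0.25 to 0.86 for Sox2 and 0.76 to 1.24 for Klf4. The log2 difference of the Sox2/Klf4 ratio ranged from -0.18 to 0.0045. Where a group was left with 1 library, that library was assumed to vary like the others.

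Same-numbered replicates of both media share only a number: their deviations correlated at 0.131, 0.090 and 0.012 on days 18, 25 and 38 across 14016 genes. With a replicate block the Sox2 interaction of 0.71 passed (adjusted p = 0.032), and no other call changed.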

Other observations

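Myc, the transgene factor that rose with DOX in ESCs (log2 change 3.35, SE 0.18, limma adjusted p = 3.31e-08) and in iPSCs (1.69, SE 0.27, limma adjusted p = 0.0286), moved with Klf4 within the 8 DOX libraries (Pearson r = 0.956, Spearman rho = 0.929, and 0.874 without the 2 libraries farthest from the median of Klf4). Within the 8 DOX-free libraries the same r was -0.701 and rho -0.667, and r was -0.420 in the 6 2iL-ESC libraries alone. With Sox2, Myc had r = 0.629 with DOX and -0.520 without. With Pou5f1 it had 0.293 and 0.310, and -0.781 in the 6 OSKM-ESC libraries alone. The mean Myc level with DOX went from 81.6 FPKM at day 18 to 107.2 at day 25 and 137.7 at day 38, while that of Pou5f1 went from 795.7 to 717 and 586.7 FPKM. These are 12 relations described over libraries that fall in 4 groups of 2 per medium, given as descriptions without p-values.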
